A study of Arabidopsis thaliana with 14 samples.

Results

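Compound 5929745 was given to whole Arabidopsis thaliana seedlings for 3 h, and their transcripts were compared with those of seedlings kept for 3 h without any compound. The comparison rests on 4 of the 14 arrays of the series, picked by sample title: 2 arrays of seedlings with 5929745 and 2 arrays of untreated seedlings. All seedlings were wild type Col-0, moved from agar to liquid MS medium on the day before treatment. The compound was added at 50 µM on day 6 after germination. It is known here only by its code number, and the labels do not state whether untreated seedlings received its solvent. The title of the series calls the chemical albino. The remaining arrays hold 5929745 at 12 h, a second compound, 7606596, at 3 h and 12 h, and untreated seedlings at 0 h and 12 h, again with 2 arrays in each of 7 groups. The design text speaks of 2 independent sets of arrays. The p-values measure only the spread between the 2 arrays of a group. That spread was pooled over the 7 groups and drawn toward that of probe sets of like signal. Because RNA came from whole seedlings, fewer cells of a type and less RNA per cell cannot be told apart.

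Green seedlings depend on a plastid genome that encodes core subunits of both photosystems, the ATP synthase, the cytochrome b6f complex, the chloroplast NDH complex and part of the plastid ribosome. Its genes lie in co-transcribed clusters that are read by a plastid-encoded and a nucleus-encoded RNA polymerase, while most other chloroplast proteins come from nuclear genes. Plants meet foreign chemicals with reductases, glutathione transferases, glucosyltransferases and transporters, and often also raise transcripts of general stress and defence genes. Plastid and mitochondrial transcripts, unlike nuclear ones, are mostly not carried as stably polyadenylated messages, and labelling in the standard protocol of the array starts at poly-A.

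Signals are linear MAS5 values from ATH1 arrays, a short-oligonucleotide platform in which each probe set reports 1 transcript or a group of similar ones. Median signals were 163 and 161 on the arrays with 5929745 and 160.2 and 165 on the untreated arrays of 3 h. The log2 signals of the 2 arrays of a group correlated across probe sets at r = 0.989 with 5929745 and 0.983 without it, where probe sets are not independent replicates. Tests were made on log2(signal + 16) with limma, with p-values adjusted over all 15922 probe sets tested, and those under 0.05 after adjustment are the calls given here. Changes are 5929745 minus untreated with the standard error of the fit. Unless another comparison is named, rises and falls are such differences between groups at 3 h, not changes over time.

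Spike-in controls differed between the same groups. Poly-A spikes are bacterial transcripts added to the RNA before labelling, and the array holds a newer and an older set of 12 probe sets for dap, lys, phe and thr. All 12 of the newer set and 11 of the older set were lower on both arrays with 5929745 than on both untreated arrays of 3 h, and for the middle probe set of lys in the older set the arrays overlapped. Untreated over 5929745 ratios of the group means ran from 1.26 to 19.2 in the newer set and from 1.296 to 4.99 in the older one. The 19.2 came from the middle probe set of phe, which read near the floor with 5929745, at 6.44 and 1.71. The next largest ratio of the newer set was 4.17. The 3' probe set of dap read 165 and 149 with 5929745, against 297 and 365 in untreated seedlings. The mean log2 signal over the 12 newer probe sets was 5.20 and 5.08 with 5929745, against 6.64 and 6.52 in untreated seedlings of 3 h. Untreated seedlings of 0 h read 5.03 and 4.99, close to the treated arrays. The 25S ribosomal RNA probe set went the other way, at 850.3 and 759.6 with 5929745, against 277 and 212 in untreated seedlings of 3 h. Hybridization controls, which are added after labelling, gave untreated over 5929745 ratios between 0.792 and 1.07 over 9 newer probe sets and between 1.06 and 1.37 over 9 older ones. In the older set 8 of the 9 were lower on both arrays with 5929745, and in the newer set 1 was lower and 3 were higher. The share of these differences in the gene changes described here was not tested, and compound and labelling difference cannot be told apart within the 4 arrays.

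**Figure D1:**
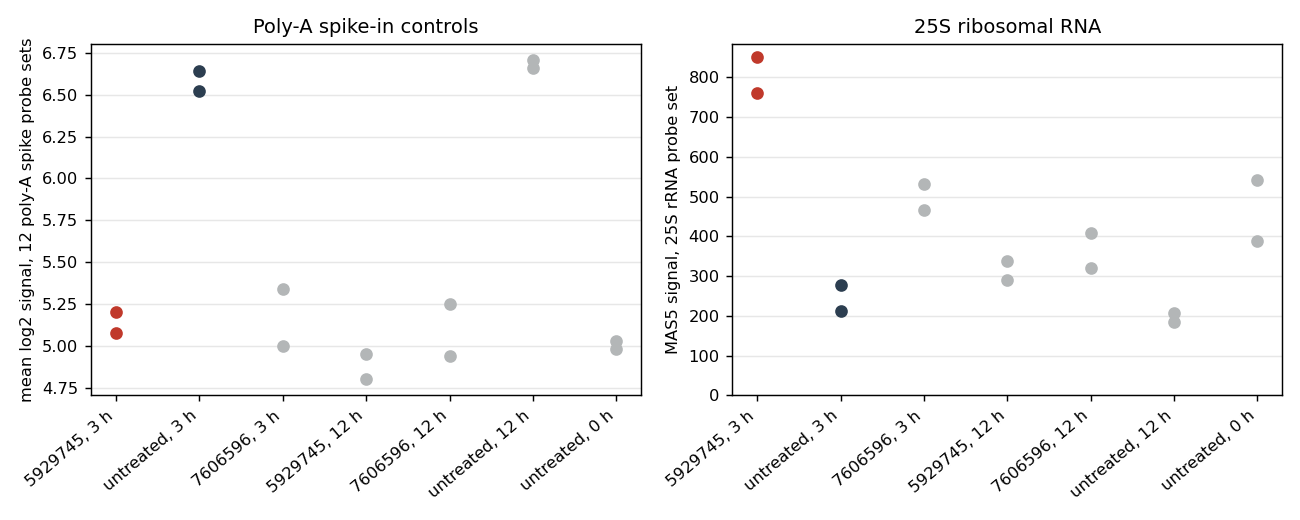
Mean log2 signal of the 12 newer poly-A spike probe sets (left panel) and MAS5 signal of the 25S rRNA probe set (right panel) on each of the 14 arrays, by group. The arrays with 5929745 at 3 h (red) lie at 5.20 and 5.08 for the spikes, below the untreated arrays of 3 h (dark) at 6.64 and 6.52, and above them for 25S rRNA.

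Few probe sets were called between seedlings with 5929745 and untreated ones at 3 h. With 2 arrays a group, a probe set that was not called may still differ. Of 15922 probe sets, 183 (1.15%) passed the test, 123 of them higher (0.773%) and 60 lower (0.377%) with 5929745. A change of 2-fold or more was reached by 24 of the rises (0.151%) and 4 of the falls (0.0251%). The median change over all probe sets was -0.01 on the log2 scale, and the middle of the distribution ran from -0.17 to 0.16. Without a correction for multiple tests 2499 probe sets had p under 0.05. On 7411 probe sets (46.5%) the arrays of the groups did not overlap, so a lack of overlap alone sets no gene apart here. Leaving out 1 array at a time gave 61 and 41 calls without 5929745 array 1 or array 2, and 81 and 145 calls without untreated array 1 or array 2. In such fits the lone array is assumed to vary like the other groups. Most of the 183 calls did not pass in all 4 of these fits. In every call, 123 higher and 60 lower, the arrays of the groups did not overlap. Leaving out 1 array therefore could not turn a direction.

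The calls that carry a single gene name were mostly nuclear, with a large plastid share among the rises. Of the 123 higher probe sets, 69 had a single gene: 54 nuclear, 14 plastid-encoded and 1 mitochondrion-encoded. Of the 60 lower ones, 29 had a single gene, of which 27 were nuclear and 2 plastid-encoded. A further 48 higher and 25 lower probe sets were without a gene in the annotation used, and 6 in each direction had several genes. The median called rise was 0.75 and the median called fall was -0.65.

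**Figure D2:**
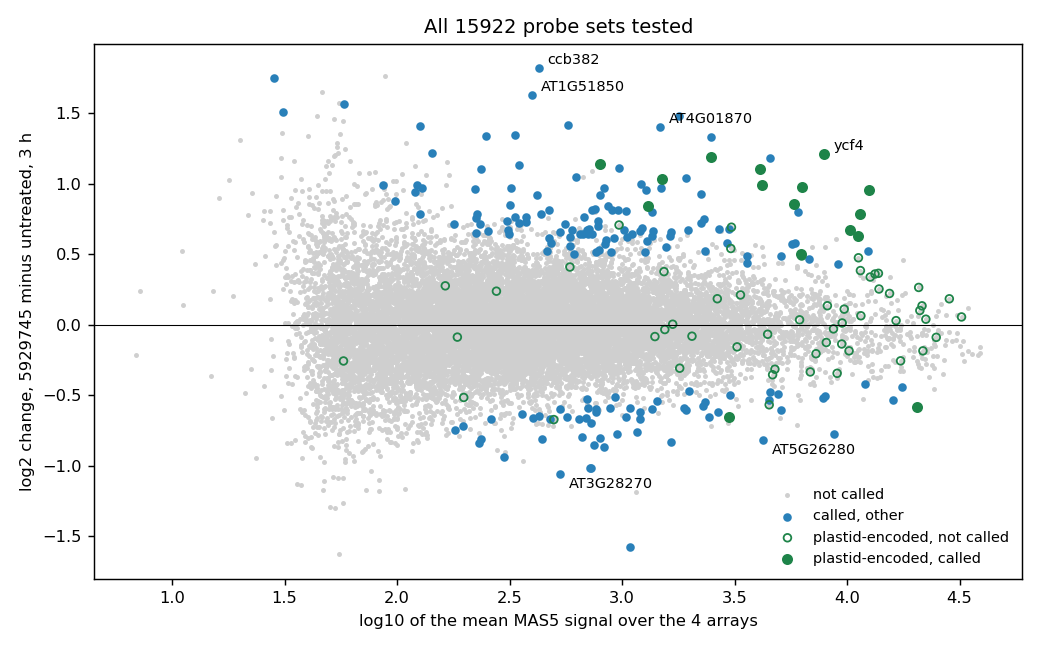
Log2 change, 5929745 minus untreated at 3 h, against the log10 mean signal of the 4 arrays for all 15922 probe sets. Called probe sets are coloured and plastid-encoded genes are drawn in green; ccb382 at 1.82 is the highest called point, and most called changes lie within 1 log2 unit of 0.

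The highest rise by the naming rule belonged to a mitochondrial gene. ccb382, which encodes a part of the cytochrome c maturation machinery, read 704 and 630.0 with 5929745, against 129.6 and 240.4 in untreated seedlings of 3 h. The arrays did not overlap, as the naming rule requires, and the change was 1.82 ± 0.23 (limma, adjusted p = 0.000351). Nuclear DNA holds a copy of much of the mitochondrial genome, so the source of the transcript is uncertain. ccb382 was the only called gene among the 13 mitochondrion-encoded genes measured with 18 probe sets, whose median change was 0.02. The 6 genes of mitochondrial complex I had no call in either direction over their 11 probe sets, which ran from -0.32 to 0.22. The other genes of cytochrome c maturation that were measured, ccb206 and ccb452, changed by 0.08 and -0.12 without passing. At 0 h ccb382 read 779.7 and 567, the level seen with 5929745, and the change against 0 h was 0.00 ± 0.23 (limma, adjusted p = 0.998). Poly-A spikes of the 0 h arrays also lay nearer to the treated arrays than to the untreated ones of 3 h, while 25S rRNA at 0 h, at 541 and 389, lay between them; the part of this in the result was not tested.

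Plastid-encoded transcripts gave 14 called rises and 2 called falls among 69 genes, all 69 of which passed the filter on low signals. This is 20.3% of them called higher, beside 0.773% of all probe sets. Their median change was 0.13, with 44 genes above 0 and 25 below it, so the genes did not all move the same way. Unadjusted p under 0.05 (limma) was reached by 32 of the 69, beside 2499 of all 15922 probe sets. Their summed signal was 623386 and 610789 with 5929745, against 552636 and 555726 in untreated seedlings. The 14 called rises came from arrays on which poly-A spikes were lower and 25S rRNA was higher, and the part of that difference was not tested.

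The photosystem I group held the most calls for its size. Of 7 genes for photosystem I subunits and its assembly factors, 4 rose and 1 fell, with a median change of 0.68. ycf4, a photosystem I assembly factor, read 10935 and 11161 with 5929745, against 4823 and 4689 in untreated seedlings. It had the smallest adjusted p of the comparison's named genes, with a change of 1.21 ± 0.12 (limma, adjusted p = 5.24e-05). psaC, the subunit that holds the terminal iron-sulfur clusters, read 9085 and 7682 with 5929745, against 4082 and 4375 in untreated seedlings (change 0.98 ± 0.16, limma, adjusted p = 0.00368). psaA, a reaction centre subunit, read 12287 and 13105 with 5929745, against 7061 and 8931 without it (change 0.68 ± 0.13, limma, adjusted p = 0.0173). ycf3, another assembly factor, also rose, by 0.84 ± 0.19 (limma, adjusted p = 0.0419). The small subunit psaJ was lower, at 15093 and 17877 with 5929745, against 23751 and 25447 in untreated seedlings (change -0.58 ± 0.13, limma, adjusted p = 0.0308). At 0 h psaJ read 18585 and 17685. In each of these genes the arrays of the groups stayed apart, as in every called gene. The call of ycf4 held without any 1 array. That of psaC ended without 5929745 array 1 (0.86, adjusted p = 0.0692). That of psaA ended without either 5929745 array or untreated array 1 (0.51 to 0.72, adjusted p 0.0702 to 0.172). That of ycf3 ended without either 5929745 array or untreated array 2 (0.49 to 0.89, adjusted p 0.133 to 0.261). That of psaJ ended without any 1 of the 4 arrays (-0.70 to -0.46, adjusted p 0.0686 to 0.203).

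Of 15 photosystem II genes 3 rose and none fell, with a median of 0.13, and 6 had an unadjusted p under 0.05. psbC encodes the inner antenna protein CP43 and read 7992 and 6974 with 5929745, against 4015 and 4209 without it (change 0.86 ± 0.14, limma, adjusted p = 0.00521). psbA, the gene of the D1 reaction centre protein, had a change of 0.63 ± 0.13 (limma, adjusted p = 0.0278). psbB, the gene of the inner antenna protein CP47, had one of 0.50 ± 0.12 (limma, adjusted p = 0.0442). For psbA the arrays read 14377 and 12628 with 5929745, against 9714 and 7812 in untreated seedlings. psbB read 7514 and 7068 with 5929745, against 5083 and 5206 in untreated seedlings. In all 3 genes the treated arrays were the higher ones, as in every called rise. psbD, which encodes the D2 protein and lies beside psbC, had 4389 and 3219 with 5929745, against 2324 and 2315 in untreated seedlings, and its change of 0.69 ± 0.17 missed the threshold (limma, adjusted p = 0.056). The calls of psbC ended without 5929745 array 1 or untreated array 1 (0.76 to 0.82, adjusted p 0.0543 to 0.0769). Those of psbA ended without either 5929745 array or untreated array 2 (0.47 to 0.72, adjusted p 0.0995 to 0.187), and that of psbB without any 1 of the 4 arrays (0.46 to 0.55, adjusted p 0.118 to 0.196).

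Among the other plastid complexes the calls were fewer. Of 6 ATP synthase genes 2 rose, with all 6 above 0 and a median of 0.30. Those called were atpI and atpH. atpI read 917 and 1293 with 5929745, against 416 and 566 in untreated seedlings (change 1.14 ± 0.25, limma, adjusted p = 0.0358). atpH read 15448 and 13423 with 5929745, against 8554 and 8119 in untreated seedlings (change 0.79 ± 0.13, limma, adjusted p = 0.00486). atpF had a change of 0.34 ± 0.15 and did not pass (limma, adjusted p = 0.275). Of 10 NDH genes 2 rose and the median was 0.00. ndhJ read 3860.5 and 3084 with 5929745, against 1649 and 1375 without it (change 1.19 ± 0.14, limma, adjusted p = 0.000215). ndhK read 2055 and 1972 with 5929745, against 1079 and 882 in untreated seedlings (change 1.03 ± 0.16, limma, adjusted p = 0.00317). None of 7 cytochrome b6f genes passed the adjusted threshold, with a median of 0.00 and 2 at an unadjusted p under 0.05. The call of atpI ended without either 5929745 array or untreated array 1 (0.90 to 1.38, adjusted p 0.064 to 0.300), that of atpH without 5929745 array 1 (0.69, adjusted p = 0.0757), while those of ndhJ and ndhK held without any 1 array.

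Outside the photosynthetic complexes, 2 of 9 plastid polymerase and housekeeping genes rose, with a median of 0.38. accD, the plastid-encoded subunit of the acetyl-CoA carboxylase that starts fatty acid synthesis, read 6169.9 and 4965 with 5929745, against 3028 and 2165 in untreated seedlings (change 1.11 ± 0.17, limma, adjusted p = 0.00317). cemA, a chloroplast envelope protein gene, read 16135 and 16854 with 5929745, against 9118 and 7915 in untreated seedlings (change 0.96 ± 0.11, limma, adjusted p = 0.000215). Plastid ribosomal protein genes went both ways, with 1 rise and 1 fall among 15 and a median of -0.13. rps2 was higher, at 5395 and 5709 with 5929745, against 2955 and 2615 in untreated seedlings (change 0.99 ± 0.15, limma, adjusted p = 0.00182). At 0 h rps2 read 6565 and 4404. rps18 fell to 2188 and 2446 with 5929745, against 4013 and 3319 in untreated seedlings (change -0.65 ± 0.14, limma, adjusted p = 0.0278). cemA and rps2 kept their calls without any 1 array. The call of accD ended without 5929745 array 1 (0.95, adjusted p = 0.064), and that of rps18 without either 5929745 array or untreated array 1 (-0.73 to -0.52, adjusted p 0.120 to 0.182). Over all plastid genes, called rises numbered 5 and 9 without 5929745 array 1 or 2, and 10 and 11 without untreated array 1 or 2; called falls numbered 0 or 1 in each case.

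The called plastid genes were set in their order along the plastid genome, among the genes measured. Of the 14 called rises, 9 lay directly beside another called rise. atpH, atpI and rps2 followed one another, within a cluster known to be transcribed together with atpF and atpA. psaA lay beside ycf3, and ndhJ beside ndhK, whose other co-transcribed neighbour ndhC had a change of -0.34 ± 0.11 (limma, adjusted p = 0.127). ycf4 lay beside cemA in the cluster with psaI (0.14 ± 0.11, limma, adjusted p = 0.599) and petA (0.48 ± 0.12, limma, adjusted p = 0.061). Both falls came from another cluster, where psaJ and rps18 flank rpl33 (0.06 ± 0.16, limma, adjusted p = 0.892). Probe sets near each other on 1 transcript share their source, so neighbours are not separate evidence.

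**Figure D3:**
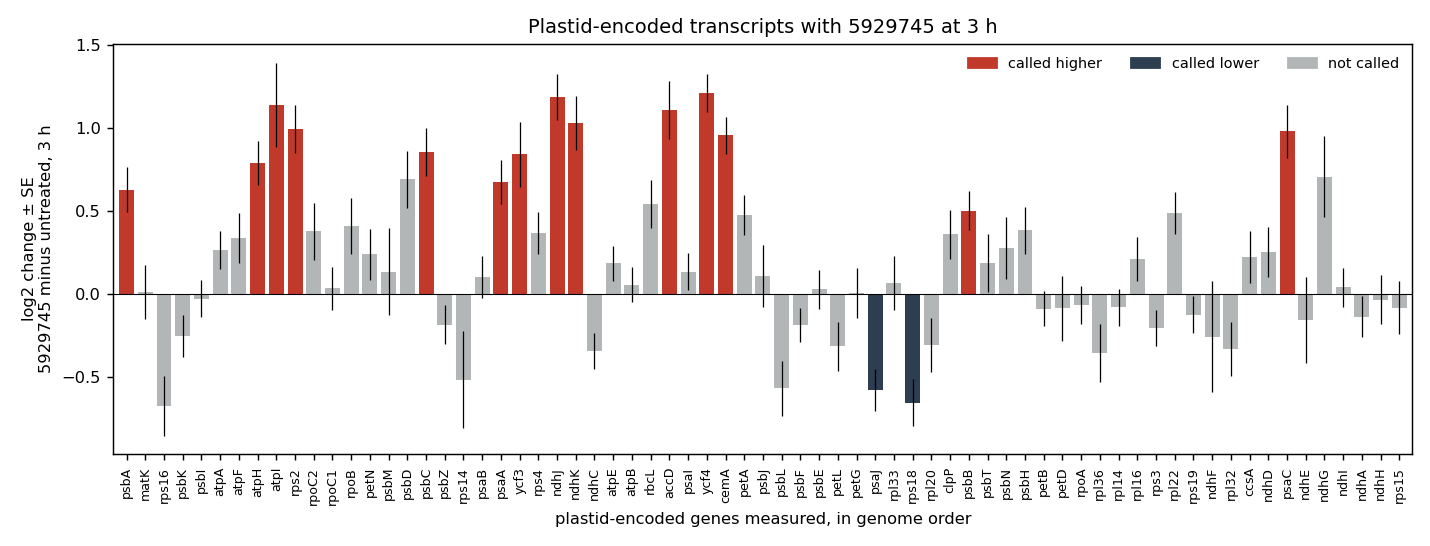
Log2 change with its standard error (bars and lines), 5929745 minus untreated at 3 h, for 69 plastid-encoded genes in genome order. Red bars are the 14 called rises, dark bars the 2 called falls (psaJ and rps18) and grey bars genes that did not pass; the called rises stand in short runs such as atpH, atpI and rps2.

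The nuclear genes listed here for chloroplast functions gave no call, which at 1.15% of all probe sets called is near the background for so few genes. Other nuclear genes of chloroplast proteins were not counted. No gene passed among 8 measured for chlorophyll synthesis (median -0.03), 3 light-harvesting proteins (-0.06), 5 nuclear photosystem and electron transport subunits (-0.15) and 3 Calvin cycle enzymes (-0.01). At an unadjusted p under 0.05 there were 1, 0, 2 and 0 of them. The summed signal of the 3 light-harvesting genes, all for the minor antenna protein CP29, was 58755 and 55422 with 5929745, against 57962 and 63547 in untreated seedlings, so the groups overlapped. PSBY, a nuclear photosystem II subunit gene, had 20815 and 19344 with 5929745, against 26958 and 25072 in untreated seedlings, a change of -0.37 ± 0.10 that missed the threshold (limma, adjusted p = 0.072). GSA1, an enzyme gene at the start of tetrapyrrole synthesis, had a change of 0.52 ± 0.18 (limma, adjusted p = 0.164). Both groups thus held transcripts of green tissue. Of the root markers 3 were measured, with summed signals of 11177 and 13390 with 5929745, against 12752 and 14982 in untreated seedlings, and none passed the test (0 at an unadjusted p under 0.05).

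Of 8738 probe sets tested with a single gene, most of them nuclear, 54 nuclear ones were called higher and 27 lower. Over all probe sets the called shares were 0.773% and 0.377%. Among these nuclear calls 9 rises and 1 fall reached 2-fold, beside 0.151% and 0.0251% of all probe sets. AT2G38250 (1.75) and AT5G25500 (1.51) were among the 2-fold rises, with untreated arrays near the floor. Those arrays read 3.36 and 5.44 for AT2G38250 and 9.24 and 7.49 for AT5G25500. AT1G51850, which encodes a leucine-rich repeat receptor kinase, was the highest of the named nuclear rises. It read 625 and 596 with 5929745, against 199 and 174 in untreated seedlings, a change of 1.63 ± 0.23 (limma, adjusted p = 0.00143). Of 9 receptor kinase genes measured in its chromosomal neighbourhood it was the one called, and the median of the 9 was 0.10. Its neighbours AT1G51790 (0.59 ± 0.17, limma, adjusted p = 0.0857) and AT1G51820 (0.50 ± 0.16, limma, adjusted p = 0.132) did not pass.

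AT4G01870 read 2109.9 and 2173 with 5929745, against 941 and 681 in untreated seedlings (change 1.4 ± 0.16, limma, adjusted p = 0.000215). AT2G30270, of the LURP-one family, read 483 and 489.6 with 5929745, against 204 and 162 in untreated seedlings (change 1.35 ± 0.15, limma, adjusted p = 0.000215). AT1G65510, a gene of no function known here, read 463 and 511 with 5929745, against 225 and 201 in untreated seedlings (change 1.13 ± 0.15, limma, adjusted p = 0.000693). In these 3 genes and AT1G51850 both treated arrays lay above both untreated ones, as the naming rule requires. Their calls held without any 1 array. AT2G36220 read 1205 and 1471 with 5929745, against 593 and 620.1 in untreated seedlings (change 1.11 ± 0.19, limma, adjusted p = 0.00675). AT2G03690, which encodes a protein like the ubiquinone synthesis factor COQ4 of yeast, read 974 and 730.1 with 5929745, against 443 and 361 in untreated seedlings (change 1.05 ± 0.21, limma, adjusted p = 0.0181). AT2G46100 read 1603 and 1621 with 5929745, against 662 and 965 in untreated seedlings (change 1.0 ± 0.18, limma, adjusted p = 0.00741). No array of one group overlapped the other group, as the naming rule requires. The call of AT2G36220 ended without 5929745 array 2 or untreated array 1 (0.97 to 1.08, adjusted p 0.0572 to 0.134). That of AT2G03690 ended without 5929745 array 1 or untreated array 2 (0.84 to 0.91, adjusted p 0.116 to 0.167), and that of AT2G46100 without either 5929745 array or untreated array 1 (0.73 to 1.0, adjusted p 0.064 to 0.0979).

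The falls were smaller and less stable. AT3G28270, a gene of the At14a-like family, fell to 323 and 349 with 5929745, against 744 and 692 in untreated seedlings (change -1.06 ± 0.13, limma, adjusted p = 0.000315). AT5G26280, which encodes a protein with TRAF-like (MATH) domains, was lower, at 3261 and 2856 with 5929745, against 5055 and 5721 in untreated seedlings (change -0.81 ± 0.11, limma, adjusted p = 0.00105). The calls of these genes held without any 1 array, the only such calls among the 14 falls named. AT3G28220, with the same kind of domain, fell to 611 and 541 with 5929745, against 879.6 and 1277 in untreated seedlings (change -0.87 ± 0.20, limma, adjusted p = 0.0442). AT4G23680, of the major latex protein family, fell to 1089.6 and 1292 with 5929745, against 2033 and 2211 in untreated seedlings (change -0.83 ± 0.20, limma, adjusted p = 0.0468). The groups were apart in all 4 genes, as the naming rule requires. AT3G28220 lost its call without either 5929745 array or untreated array 2 (-0.95 to -0.60). AT4G23680 lost its call without any 1 of the 4 arrays (-0.95 to -0.71).

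The remaining named nuclear falls lay between -0.94 and -0.65. AT2G07718, which lies in nuclear DNA copied from the mitochondrion, fell to 203 and 197 with 5929745, against 413 and 384 in untreated seedlings (change -0.94 ± 0.20, limma, adjusted p = 0.0236). Its probe set is of a type meant to match several similar transcripts, so its source is uncertain. AT4G18570 fell to 451 and 509.9 with 5929745, against 829 and 865 in untreated seedlings (change -0.80 ± 0.15, limma, adjusted p = 0.0126). AT2G18750, a calmodulin-binding protein gene, fell to 869.6 and 543 with 5929745, against 1247 and 1131 in untreated seedlings (change -0.78 ± 0.17, limma, adjusted p = 0.0272). The subtilisin-like protease gene SBT1.3 fell to 491 and 493 with 5929745, against 856 and 734 in untreated seedlings (change -0.67 ± 0.16, limma, adjusted p = 0.0477). AQI, named as an aquaporin interactor, fell to 878 and 968 with 5929745, against 1516 and 1430.4 in untreated seedlings (change -0.67 ± 0.13, limma, adjusted p = 0.0169). AT1G18810, a gene related to phytochrome kinase substrate, AT2G17972, the cyclophilin gene AT1G74070 and the carboxylesterase-like gene AT2G03550 fell by 0.67, 0.66, 0.66 and 0.65 on the log2 scale (limma, adjusted p = 0.0232, 0.0478, 0.0473 and 0.0154). All 9 of these genes had arrays that did not overlap, as the naming rule requires. AT2G07718, AT4G18570, SBT1.3, AT1G18810 and AT1G74070 lost their calls without any 1 of the 4 arrays, at an adjusted p of 0.0544 to 0.319. The other genes lost theirs in 3 of the 4 such fits, at an adjusted p of 0.0598 to 0.314: AT2G18750 in all but that without 5929745 array 1, AT2G17972 in all but that without 5929745 array 2, and AQI and AT2G03550 in all but that without untreated array 2.

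**Figure D4:**
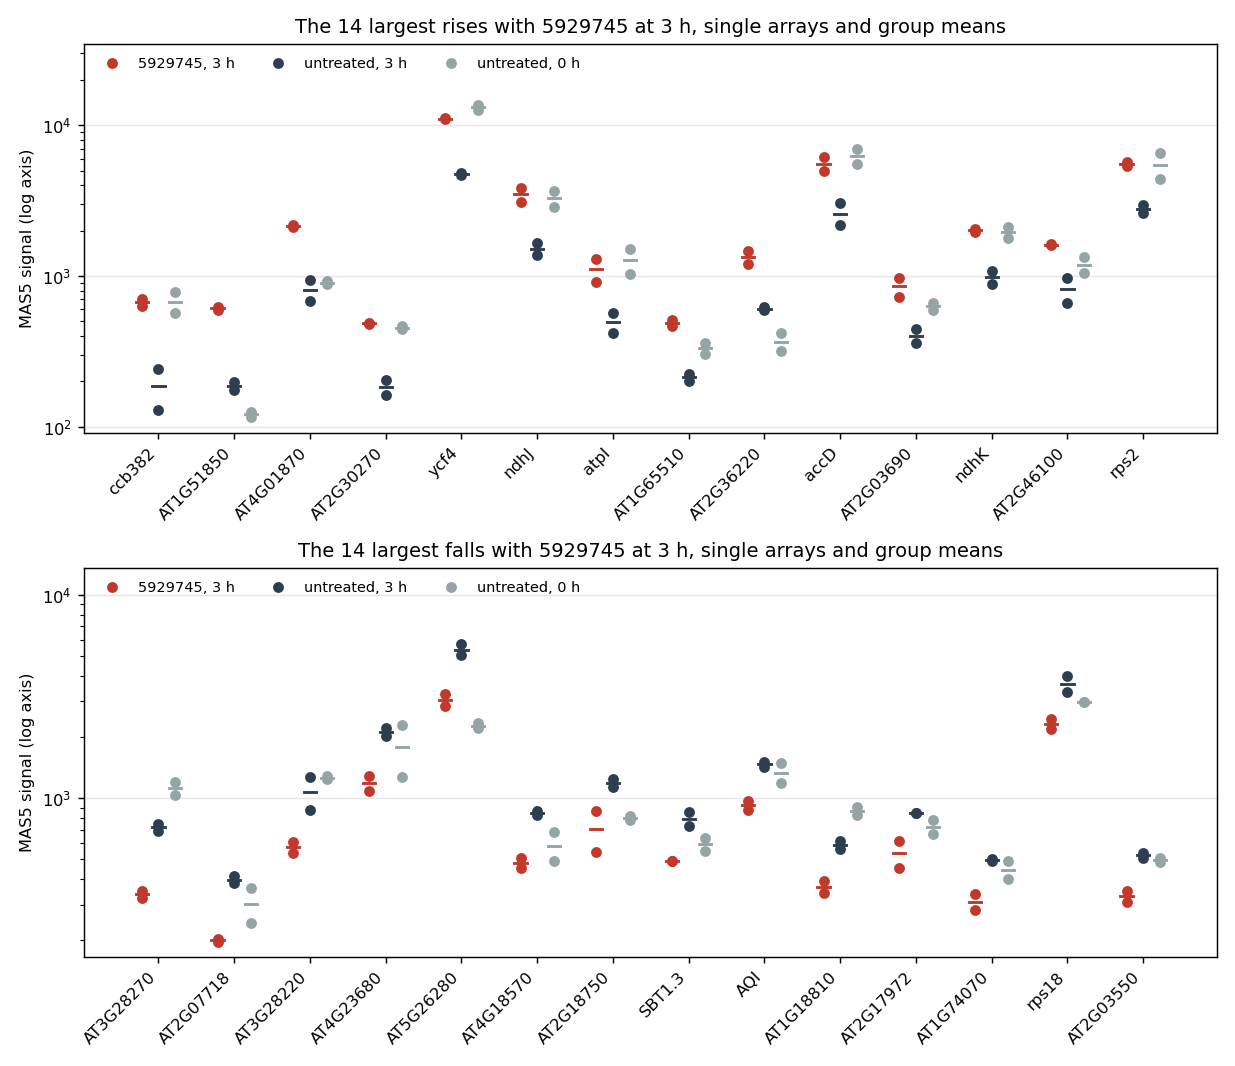
MAS5 signals (log axis) of the 14 largest rises (upper panel) and 14 largest falls (lower panel) named by the rule, as single arrays (points) and group means (short lines), for 5929745 at 3 h, untreated at 3 h and untreated at 0 h. The red and dark points do not overlap in any gene, which the naming rule requires. For ccb382, AT2G30270 and the plastid genes of the upper panel the 0 h arrays lie near the red ones.

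The stress and hormone lists held 28 measured genes, of which 2 were called higher and 0 lower (7.14% called, beside 1.15% of all probe sets). This share rests on 2 genes, in lists chosen with earlier results of these data known, and was not tested. Of 52 gene lists, 40 had a measured member and 10 had a called one. Of 5 measured xenobiotic detoxification genes the alkenal reductase gene AER rose, at 1189 and 1519 with 5929745, against 898 and 813 in untreated seedlings (change 0.64 ± 0.13, limma, adjusted p = 0.0219), and the median was 0.21. STZ, a zinc finger repressor gene induced by oxidative and salt stress, was the 1 reactive oxygen gene measured and read 379.5 and 395 with 5929745, against 248 and 206 in untreated seedlings (change 0.74 ± 0.16, limma, adjusted p = 0.0257). The call of AER ended without 5929745 array 2 or either untreated array (0.47 to 0.71, adjusted p 0.06 to 0.271), and that of STZ without either 5929745 array or untreated array 2 (0.61 to 0.76, adjusted p 0.105 to 0.203). Lists without any call included heat shock (5 genes, median 0.17), abscisic acid and drought (4 genes, 0.39), early auxin response (4 genes, 0.27), flavonoids (3 genes, -0.49), the mitochondrial stress response (2 genes, -0.60), core histones (5 genes, -0.21) and cell wall expansins and xyloglucan enzymes (8 genes, -0.05). Beside them, the median over all probe sets was -0.01. Unadjusted p under 0.05 was reached by 2 heat shock, 2 abscisic acid, 1 auxin, 1 flavonoid, 2 mitochondrial stress, 1 histone and 3 cell wall genes. LTI30, a dehydrin gene, had the largest change of the abscisic acid list, at 1324 and 1146 with 5929745, against 787 and 703 in untreated seedlings (0.72 ± 0.19, limma, adjusted p = 0.0749).

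Setting the treated arrays of 3 h against untreated seedlings of 0 h asks which levels also differed from those before treatment, and it shares the treated arrays with the comparison above. In it 1541 probe sets passed (9.68%), 883 higher (5.55%) and 658 lower (4.13%). Of the 14 named rises, 4 were also called higher than at 0 h, all nuclear, and the median of the 14 was 0.09. AT1G51850 read 126 and 116 at 0 h and was higher with 5929745 by 2.2 ± 0.23 (limma, adjusted p = 5.02e-06). AT2G36220 was higher by 1.83 ± 0.19 (limma, adjusted p = 4.81e-06) and AT4G01870 by 1.23 ± 0.16 (limma, adjusted p = 6.19e-05). AT1G65510 was higher by 0.53 ± 0.15 (limma, adjusted p = 0.0304), a call that ended without either 5929745 array or 0 h array 1 (0.42 to 0.60, adjusted p 0.0773 to 0.228). None of the 69 plastid genes was called higher than at 0 h and 7 were called lower, with a median of -0.18. ycf4 read 13649 and 12700.4 at 0 h and had a change of -0.25 ± 0.12 (limma, adjusted p = 0.204). psbB, with 13718 and 10291 at 0 h, was lower with 5929745 by -0.70 ± 0.12 (limma, adjusted p = 0.000577).

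Untreated seedlings of 3 h stood below those of 0 h in many of these genes. In untreated seedlings, 3 h against 0 h, 1921 probe sets passed (12.1%), and 10 of the 14 named rises were called lower at 3 h and 1 higher. Of the 69 plastid genes 27 were called lower at 3 h and 4 higher, with a median of -0.36. Of all probe sets 5.4% were called lower and 6.66% higher. This comparison shares the untreated arrays of 3 h with the main one, and its 0 h arrays lie on the other side of the poly-A difference.

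Among the 14 named falls, 5 were also called lower than at 0 h: AT3G28270 (-1.69 ± 0.13, limma, adjusted p = 1.32e-07), AT1G18810 (-1.22 ± 0.14, limma, adjusted p = 1.04e-05), AT3G28220 (-1.11 ± 0.20, limma, adjusted p = 0.00125), AT2G03550 and AQI. AT3G28270 read 1208 and 1037 at 0 h, so both the untreated arrays of 3 h and, further, the treated arrays lay below it. The calls of AT2G03550 and AQI against 0 h each ended in 2 of 4 fits without 1 array (5929745 array 1, and 0 h array 2 for AT2G03550 or 0 h array 1 for AQI; -0.54 to -0.36, adjusted p 0.0524 to 0.199). AT5G26280 read 2219 and 2333 at 0 h and was higher with 5929745 than at 0 h by 0.42 ± 0.11 (limma, adjusted p = 0.0214), a call that held only with both arrays or without 5929745 array 2 (otherwise 0.33 to 0.46, adjusted p 0.0682 to 0.199).

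At 12 h a separate set of arrays shows which of these genes still differed. Between 5929745 and untreated seedlings at 12 h, 223 probe sets passed (1.4%), 132 higher (0.829%) and 91 lower (0.572%). Of the 14 rises of 3 h, 2 were called higher and 1 lower at 12 h, with 11 above 0 and a median of 0.35. Of the 14 falls, 3 were called lower and 12 were below 0, with a median of -0.12. Poly-A spikes at 12 h averaged 4.80 and 4.95 with 5929745, against 6.71 and 6.66 in untreated seedlings, so the control difference recurs at that time.

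AT3G28270 and AT5G26280 stayed low. At 12 h AT3G28270 read 1015 and 785 with 5929745, against 1598 and 1635 in untreated seedlings (change -0.85 ± 0.13, limma, adjusted p = 0.00276). AT5G26280 read 2195 and 1927 with 5929745, against 4521 and 4112 in untreated seedlings (change -1.06 ± 0.11, limma, adjusted p = 0.000278). rps18 read 1929 and 2530.1 with 5929745, against 4062 and 4311 in untreated seedlings (change -0.92 ± 0.14, limma, adjusted p = 0.00256). These calls held without any 1 array. ycf4 read 7999 and 7414 with 5929745, against 4975 and 4239 in untreated seedlings (change 0.74 ± 0.12, limma, adjusted p = 0.00274), a call that ended without untreated array 2 of 12 h (0.63, adjusted p = 0.0594). AT2G36220 was higher by 0.87 ± 0.19 (limma, adjusted p = 0.0323), but not without 5929745 array 2 or either untreated array (0.53 to 0.93, adjusted p 0.105 to 0.281). Of the other named plastid genes psbB (0.85 ± 0.12, limma, adjusted p = 0.00101) and atpH (0.86 ± 0.13, limma, adjusted p = 0.00265) were called at 12 h. Over all 69 plastid genes, 7 were called higher and 10 lower at 12 h, with a median of 0.00.

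Whether the effect at 12 h differed from that at 3 h was tested as an interaction, in which 18 probe sets passed (0.113%), 6 higher (0.0377%) and 12 lower (0.0754%). Of the 28 named genes 3 passed. These genes were chosen for large changes at 3 h, which the test subtracts, so the choice itself favours a difference. The interaction was below 0 in all 14 rises (median -0.82) and above 0 in 12 of the 14 falls (median 0.58). The effect on ndhJ was lower at 12 h by -1.51 ± 0.20 (limma, adjusted p = 0.00343), at 2182 and 2088 with 5929745 at 12 h, against 2846 and 2519 in untreated seedlings. That on AT2G30270 was lower by -1.48 ± 0.21 (limma, adjusted p = 0.00649), at 367 and 317 with 5929745 at 12 h, against 390.2 and 361 in untreated seedlings. That on AT2G46100 was lower by -1.72 ± 0.25 (limma, adjusted p = 0.00649), at 805 and 556 with 5929745 at 12 h, against 1030.4 and 1199 in untreated seedlings. At 12 h the treated arrays of ndhJ and AT2G46100 lay below the untreated ones, and for AT2G30270 they overlapped. In AT2G46100 the effect at 12 h was a called fall of -0.72 ± 0.18 (limma, adjusted p = 0.0488) that ended without 5929745 array 2 or either untreated array (-0.83 to -0.46, adjusted p 0.18 to 0.343). Of 8 fits without 1 array the interaction call of AT2G30270 ended in 2 (without 5929745 array 2 of 3 h or untreated array 1 of 12 h; adjusted p 0.057 to 0.0677) and that of AT2G46100 in 2 (without 5929745 array 2 of 3 h or untreated array 2 of 12 h; adjusted p 0.0677 to 0.0857). AT1G51850 read 96.8 and 168 with 5929745 at 12 h, against 129 and 68.4 in untreated seedlings, but its interaction of -1.25 ± 0.33 did not pass (limma, adjusted p = 0.153).

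**Figure D5:**
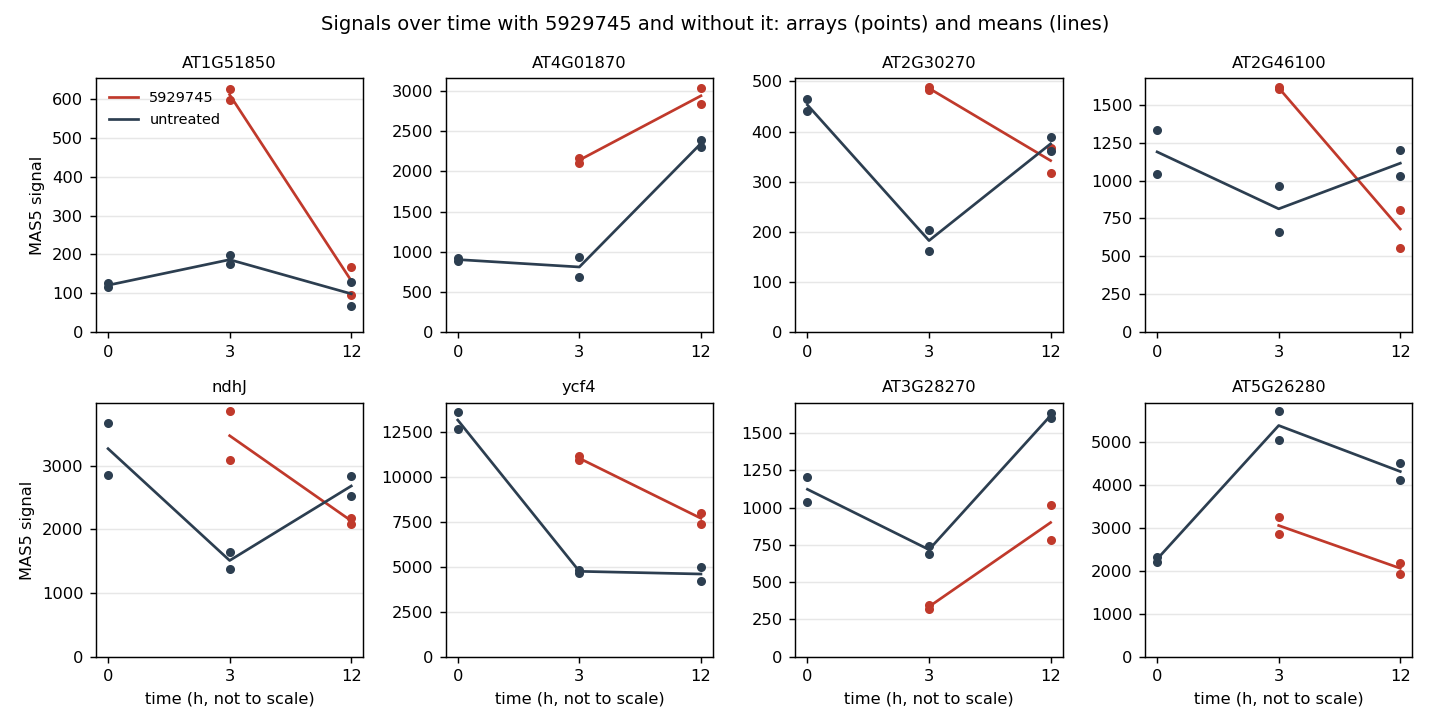
MAS5 signals (linear axes from 0) of 8 named genes over time with 5929745 (red, 3 h and 12 h) and without it (dark, 0 h, 3 h and 12 h), as single arrays (points) and group means (lines). AT3G28270 and AT5G26280 lie below the untreated arrays at both times, while AT2G30270, ndhJ and AT2G46100 lie above them at 3 h and not at 12 h.

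Seedlings given 7606596 at the same dose and time allowed a direct comparison of the compounds that does not use the untreated arrays. Between 5929745 and 7606596 at 3 h, 146 probe sets passed (0.917%), 29 higher (0.182%) and 117 lower (0.735%) with 5929745. Of the 28 named genes none was called higher and 3 were called lower with 5929745, and no plastid gene of 69 was called, with a median of 0.05. AT3G28270 read 323 and 349 with 5929745, against 671 and 629 with 7606596 (difference -0.92 ± 0.13, limma, adjusted p = 0.000629), and this call held without any 1 array. AT2G36220 read 1205 and 1471 with 5929745, against 2796 and 3507 with 7606596 (difference -1.22 ± 0.19, limma, adjusted p = 0.0015). AT4G23680 read 1089.6 and 1292 with 5929745, against 2574 and 2067 with 7606596 (difference -0.95 ± 0.20, limma, adjusted p = 0.0205). The arrays of the compounds did not overlap in these 3 genes. AT2G36220 lost this call without 5929745 array 1 or 7606596 array 2 (-1.08 to -1.06, adjusted p 0.0566 to 0.0635), and AT4G23680 without any 1 array (-1.11 to -0.79, adjusted p 0.0508 to 0.252). For ycf4 the difference between compounds was 0.01 ± 0.12, for AT1G51850 it was 0.20 ± 0.23 and for AT4G01870 it was -0.07 ± 0.16, none past the threshold; with 2 arrays a group this does not show equal responses. Against the untreated arrays of 3 h, the 14 named rises had a median change of 1.04 with 7606596 and all 14 were above 0. The 14 named falls had one of -0.62, with 13 below 0, beside -0.02 over all probe sets. That comparison shares the untreated arrays by which these genes were chosen. Poly-A spikes read 5.20 and 5.08 with 5929745, against 5.34 and 5.00 with 7606596. 25S rRNA read 850.3 and 759.6 with 5929745, against 531 and 466 with 7606596.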

How the data were processed

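Whole-seedling RNA was measured on 14 Affymetrix ATH1 arrays, 2 in each of 7 groups taken from the sample titles. The deposited values are linear signal intensity, made by the authors with MAS5 per the submitters' processing notes (version not given there); MAS5 scales each array on its own, and the mean of the central 96% of probe sets was 500.05 on every array. From the deposited intensity, log2(signal + 16) was computed for the 15922 of 22746 non-control probe sets whose mean over all arrays reached the 30th percentile (42.3); the offset shrinks changes of weak signals. limma 3.58.1 in R 4.3.3 fitted 1 mean per group over all arrays, which share 1 estimate of spread (7 residual and 11.4 prior degrees of freedom), with a variance trend and Benjamini-Hochberg adjustment over all probe sets tested. Tests were two-sided. The number of arrays limits the precision. A platform annotation named a single gene for 8738 kept probe sets, several for 331 and none for 6853; of 13513 named in all, 13436 matched RefSeq.

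Genes were named by a rule: the 14 largest rises and 14 largest falls among called single-gene probe sets whose arrays did not overlap and whose higher group mean reached the median signal (358), plus up to 3 members, by adjusted p, of each list with at least 2 calls. All other genes were picked with their values already known. Members, lists and rule were chosen with earlier results of these data known, so no list was tested. Same-numbered arrays did not deviate together (r of replicate differences between -0.197 and 0.117 over 21 pairs of groups), so numbers were not taken as pairs. The alternatives tried were the offset, the filter, the variance trend, quantile normalization, the replicate block, the arrays in the fit and leaving out each array. The fit was tested on simulated data. Sequences were not used here. RefSeq start positions set the order of the plastid genes.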

Additional observations from a re-analysis of the deposited data

Results flagged for a closer look

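For 3 genes named above the effect of 5929745 differed between 12 h and 3 h by the interaction test: AT2G30270 (-1.48), ndhJ (-1.51) and AT2G46100 (-1.72), all on the log2 scale as 12 h minus 3 h. They are among 18 probe sets (0.113% of those tested) that passed this test. The 3 genes were named for large changes at 3 h, a choice that favours such a difference.

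The 25S rRNA probe set lies outside the plant genes tested and averaged 805 with 5929745 at 3 h, against 245 in untreated seedlings of 3 h, a ratio of 3.29. Its values on single arrays are given with the spike-in controls.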

How the results depend on the processing

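Of the 35 named genes, these kept their call in each of 12 alternatives: ccb382, AT1G51850, AT4G01870, AT2G30270, ycf4, ndhJ, AT1G65510, AT3G28270, AT5G26280 and cemA. None of the 35 turned its direction. As their arrays did not overlap, most of the alternatives could not have turned it, so this says little. Of the 35 calls 31 were kept with an offset of 1, 22 without a filter, 10 without a variance trend, and 34 or 35 with an offset of 64, a filter at the 50th percentile, quantile normalization, the replicate block or only the arrays compared. Without a filter the calls numbered 75 at 3 h (52 higher, 23 lower), 107 at 12 h, 3 for the interaction and 91 against 7606596. Without a variance trend they numbered 28 (24 higher, 4 lower), 42, 0 (1675 at an unadjusted p under 0.05; limma found 18 with the trend) and 92. With only the arrays compared they were 152 higher and 84 lower at 3 h, 66 at 12 h and 237 against 7606596. Of the 183 calls at 3 h, 149 were called in that fit too. Leaving out 1 array gave 41 to 145 calls at 3 h (30 to 121 higher, 11 to 24 lower), 737 to 912 against 0 h, 39 to 317 at 12 h, 2 to 75 for the interaction and 65 to 92 against 7606596. Of the plastid genes, 14 called higher became 9 without a filter and 3 without a trend. Shared numbers do not pair the arrays; with the replicate block the calls were 183 at 3 h (125 higher, 58 lower), 1484 against 0 h, 223 at 12 h, 14 for the interaction and 141 against 7606596, and SBT1.3 alone of the named genes lost its call. Fewer samples or more probe sets enter some of these fits; the cause of the other shifts was not tested.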

Other observations

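The choice of the following genes was made with their values known. At 3 h the peroxidase gene AT5G39580 read 2929 and 2971 with 5929745, against 1740.0 and 1370.5 in untreated seedlings (0.93 ± 0.18, limma, adjusted p = 0.0149). The cytokinin N-glucosyltransferase gene UGT76C2 read 369.8 and 482 with 5929745, against 252 and 231 in untreated seedlings (0.77 ± 0.16, limma, adjusted p = 0.0218). GT72B1, a glucosyltransferase gene whose enzyme conjugates chlorinated phenols and anilines, read 779 and 814 with 5929745, against 553 and 458 in untreated seedlings (0.65 ± 0.15, limma, adjusted p = 0.0442). OCT5, an organic cation transporter gene, read 286 and 288 with 5929745, against 148 and 180.0 in untreated seedlings (0.76 ± 0.15, limma, adjusted p = 0.0152). At 0 h AT5G39580 read 1643 and 1531, near the untreated arrays of 3 h. UGT76C2 read 446 and 517, GT72B1 read 776 and 785, and OCT5 read 290.4 and 263 at 0 h. These 4 calls ended in 3 or 4 of 4 fits without 1 array, at an adjusted p of 0.0634 to 0.259: GT72B1 without any 1, AT5G39580 in all but that without untreated array 1, OCT5 in all but that without untreated array 2, and UGT76C2 in all but that without 5929745 array 1.

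AT4G34950, a transporter-like gene, read 1110.4 and 1091 with 5929745 at 3 h, against 601 and 509.9 in untreated seedlings (0.97 ± 0.16, limma, adjusted p = 0.00362), and its call held without any 1 array. At 0 h it read 80.7 and 94.1. At 12 h it read 3148 and 2187 with 5929745, against 3536 and 2981 in untreated seedlings. AT1G19020 read 610.5 and 502 with 5929745, against 303 and 267 in untreated seedlings (0.92 ± 0.15, limma, adjusted p = 0.00368; 0.79 and 0.0702 without 5929745 array 1), and 2037 and 1963 with 7606596. The beta-tubulin gene TUB6 fell to 2619 and 2355 with 5929745, against 3748 and 3302 in untreated seedlings (-0.50 ± 0.11, limma, adjusted p = 0.0289), and CYP71B5, a cytochrome P450 gene, to 567 and 631 with 5929745, against 964 and 887 in untreated seedlings (-0.62 ± 0.15, limma, adjusted p = 0.0476). TUB6 lost its call without either 5929745 array or untreated array 1 and CYP71B5 without any 1 array (adjusted p 0.0702 to 0.259).

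The lowest called change of all belonged to a probe set without a gene in the annotation used, 262566_at, at 423 and 665 with 5929745, against 1596 and 1641 in untreated seedlings of 3 h (-1.58 ± 0.28, limma, adjusted p = 0.00722). Its call ended without 5929745 array 1 or untreated array 1 (-1.60 to -1.26, adjusted p 0.0537 to 0.105), and at 12 h it differed by -2.05 (limma, adjusted p = 0.001). Another such probe set, 267115_s_at, read 2253 and 2979.5 with 5929745, against 1193 and 703 in untreated seedlings (1.48 ± 0.21, limma, adjusted p = 0.00129), a call that held without any 1 array.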
